A study of Homo sapiens with 2 samples.

Results

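Some MDA-MB-231 mammosphere cells carried an interferon response without any captured transcript of IFNL1, a type III (lambda) interferon. They were selected on measured values, as the barcodes with at least 1000 unique molecular identifiers (UMIs, random tags that mark single captured transcripts), with 0 UMIs of IFNL1, and with at least 0.5% of their UMIs in 6 interferon-induced genes. These 6 rule genes were IFIT1, IFIT2, IFIT3, ISG15, MX1 and OAS1. The rule found 317 members among 1744 barcodes of at least 1000 UMIs, of 2000 deposited barcodes. There were 110 members of 800 such barcodes in the 2 mM metformin library and 207 members of 944 in the 0 mM library.

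MDA-MB-231 is an established line from a triple-negative breast cancer and has a mesenchymal character. Per the labels' protocols, the cells had spent 30 days of adaptation attached to plastic in high-glucose DMEM, with 2 mM metformin (labelled Metformin) or with 0 mM (labelled Wildtype). They were then kept for 10 days on low-attachment plates, where they form floating spheres called mammospheres, before trypsin and EDTA were used to separate the cells. Metformin, a drug for diabetes of the biguanide class, inhibits complex I of the respiratory chain. Both groups are 1 cell line, and each group is 1 library of single cells, so the design had no replicates. Differences are therefore given by size, without tests or p-values: cells of 1 library are not replicates of a dose, and dose and library cannot be told apart.

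Interferons are secreted proteins that alert cells to viral nucleic acids. Type I and type III interferons bind different receptors, but both signal through JAK kinases to a complex that holds STAT2 and IRF9 and binds interferon-stimulated response elements in the promoters of target genes. The targets include enzymes and binding proteins that block viral RNA, sensors of that RNA, chemokines and antigen presentation genes. In a culture, few cells usually make interferon while many respond to it, and some targets such as the IFIT genes can also be induced directly through IRF3 without interferon.

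The promoters of 2 rule genes and of 3 interferon-induced genes outside the rule are shown because the core of the response element can be read in them. The promoter of KLF4, a zinc-finger transcription factor gene that ranked among the genes highest in members, is shown as a window without it. The sequences are from RefSeq (GRCh38.p14), from 250 bases before to 50 bases after the gene's start, on the gene's own strand. Capitals mark each match to TTTCNNTTTC, the core of the response element, on either strand, and overlapping matches were counted separately. IFIT1 lies at chr10:89392373-89392672 (plus strand), ISG15 at chr1:1013247-1013546 (plus), HERC5 at chr4:88456869-88457168 (plus), IFIH1 at chr2:162318635-162318934 (minus), IFI6 at chr1:27672143-27672442 (minus) and KLF4 at chr9:107489720-107490019 (minus).
IFIT1: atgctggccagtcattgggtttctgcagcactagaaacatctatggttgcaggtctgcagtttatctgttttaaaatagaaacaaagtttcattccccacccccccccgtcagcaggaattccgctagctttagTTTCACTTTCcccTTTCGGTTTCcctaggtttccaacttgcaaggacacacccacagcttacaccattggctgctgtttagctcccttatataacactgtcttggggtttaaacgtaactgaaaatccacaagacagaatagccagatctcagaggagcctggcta
ISG15: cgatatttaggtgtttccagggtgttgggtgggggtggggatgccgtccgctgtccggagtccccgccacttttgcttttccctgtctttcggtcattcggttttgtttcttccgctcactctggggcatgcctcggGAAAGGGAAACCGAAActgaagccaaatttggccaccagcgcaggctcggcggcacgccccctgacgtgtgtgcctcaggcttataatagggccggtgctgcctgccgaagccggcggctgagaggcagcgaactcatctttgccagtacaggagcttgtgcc
HERC5: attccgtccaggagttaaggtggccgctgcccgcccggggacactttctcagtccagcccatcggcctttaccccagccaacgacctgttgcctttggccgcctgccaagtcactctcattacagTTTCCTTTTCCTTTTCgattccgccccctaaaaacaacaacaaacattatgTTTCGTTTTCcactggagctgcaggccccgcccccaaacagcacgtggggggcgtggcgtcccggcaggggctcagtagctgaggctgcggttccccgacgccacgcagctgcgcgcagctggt
IFIH1: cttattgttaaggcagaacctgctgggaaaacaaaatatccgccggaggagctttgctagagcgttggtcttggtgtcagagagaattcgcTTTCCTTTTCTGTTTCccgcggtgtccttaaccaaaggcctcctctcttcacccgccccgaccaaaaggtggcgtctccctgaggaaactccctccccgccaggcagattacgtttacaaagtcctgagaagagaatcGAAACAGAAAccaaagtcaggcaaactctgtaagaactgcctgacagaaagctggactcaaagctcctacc
IFI6: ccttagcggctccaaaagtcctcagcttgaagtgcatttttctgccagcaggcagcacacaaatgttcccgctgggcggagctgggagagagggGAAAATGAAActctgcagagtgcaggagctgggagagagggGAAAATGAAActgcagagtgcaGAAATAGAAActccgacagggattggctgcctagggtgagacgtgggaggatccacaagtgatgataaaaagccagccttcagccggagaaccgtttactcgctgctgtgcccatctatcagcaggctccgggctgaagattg
KLF4: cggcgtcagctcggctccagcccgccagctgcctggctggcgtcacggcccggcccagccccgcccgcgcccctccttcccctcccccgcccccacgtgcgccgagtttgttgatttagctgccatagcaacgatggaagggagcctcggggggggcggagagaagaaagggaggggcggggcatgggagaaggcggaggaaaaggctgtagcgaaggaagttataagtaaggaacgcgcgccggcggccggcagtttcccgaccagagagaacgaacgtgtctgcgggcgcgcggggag
The IFIT1 and ISG15 windows hold 2 matches each. The windows of HERC5, IFIH1 and IFI6 hold 3 matches each, and the KLF4 window holds 0. The matches are letters in a window and not shown sites of binding. Nor does a window without a match set KLF4 apart: the rule gene OAS1 and, among the 15 genes ranked highest, RSAD2, PPM1K, HERC6, CXCL11 and ZC3HAV1 also had 0 matches.

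Over all 35116 promoters of this length in the table, 3.57% held the motif. Among the genes compared between members and other barcodes, 2978 could be matched to a promoter, and 3.46% of these held it. Of the genes at least 1.5-fold higher in members in both libraries, 165 were matched and 27 of them (16.4%) held it. Of the genes at least 1.5-fold lower, 155 were matched and 3 of them (1.94%) held it. By list, it was found in 6 of 8 matched sensor genes, 21 of 36 other antiviral effectors, 9 of 16 HLA class I and peptide loading genes and 4 of 6 chemokine and cytokine genes. It was also found in 2 of 3 OAS relatives and 3 of 4 guanylate binding protein and gamma interferon genes. In the other interferon lists it was found in 1 of 4 matched ISG15 pathway genes, 1 of 6 transcription factors, 1 of 5 feedback inhibitors and 0 of 8 receptors and kinases. It was found in 0 of 17 matched NF-kB genes, 0 of 9 HLA class II genes, 0 of 25 S-phase genes and 0 of 34 G2/M genes.

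Members made up 13.8% of the barcodes of at least 1000 UMIs at 2 mM (95% exact binomial interval 11.4 to 16.3%), and 21.9% at 0 mM (19.3 to 24.7%). The share was lower at 2 mM in each band of depth, but the intervals of the libraries overlapped in all bands but the shallowest. Between 1000 and 2000 UMIs it was 11.3% (7.39 to 16.4%) at 2 mM and 25.1% (19.8 to 31.0%) at 0 mM. From 2000 to 4000 UMIs it was 13.8% (10.1 to 18.2%) at 2 mM and 20.9% (16.2 to 26.1%) at 0 mM. From 4000 to 8000 UMIs it was 15.1% (10.7 to 20.6%) at 2 mM and 19.8% (15.5 to 24.7%) at 0 mM. At 8000 UMIs or more it was 16.9% (8.76 to 28.3%) at 2 mM, with 11 members, and 23.3% (16.1 to 31.9%) at 0 mM. With each barcode thinned at random to 1000 UMIs, members were 14.9% at 2 mM (12.5 to 17.5%) and 26.2% at 0 mM (23.4 to 29.1%). Counting error is all that the intervals here cover: how far another culture or library would differ was not measured. The median member had 3274.5 UMIs at 2 mM and 3222 at 0 mM, and the median other barcode had 3028.5 UMIs at 2 mM and 3720.0 at 0 mM. Summed over cells, members held 466767 UMIs at 2 mM and 943278 at 0 mM, so that 3 counts correspond to 6.43 CPM (counts per 1000000 UMIs) at 2 mM and 3.18 CPM at 0 mM.

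The share of UMIs in the rule genes ran from the 0.5% threshold to 4.09% at 2 mM and 6.56% at 0 mM, with medians of 1.22% in 2 mM members and 1.09% in 0 mM members. The median other barcode had 0.0364% at 2 mM and 0.0661% at 0 mM. The threshold did not fall in a gap. Just inside it, between 0.5 and 0.6%, lay 12 members at 2 mM and 21 at 0 mM. Just outside, between 0.4 and 0.5%, lay 15 barcodes without IFNL1 at 2 mM and 39 at 0 mM. A further 26 barcodes at 2 mM and 30 at 0 mM met the threshold but carried IFNL1, and these IFNL1 carriers stand among the other barcodes in every comparison of members with others. IFNL1 carriers were 19.1% of all barcodes past the threshold at 2 mM (12.9 to 26.7%) and 12.7% at 0 mM (8.71 to 17.6%), and after thinning 14.4% at 2 mM and 7.14% at 0 mM. A cell with little IFNL1 RNA can have 0 UMIs of it by sampling, so membership depends on depth.

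**Figure D1:**
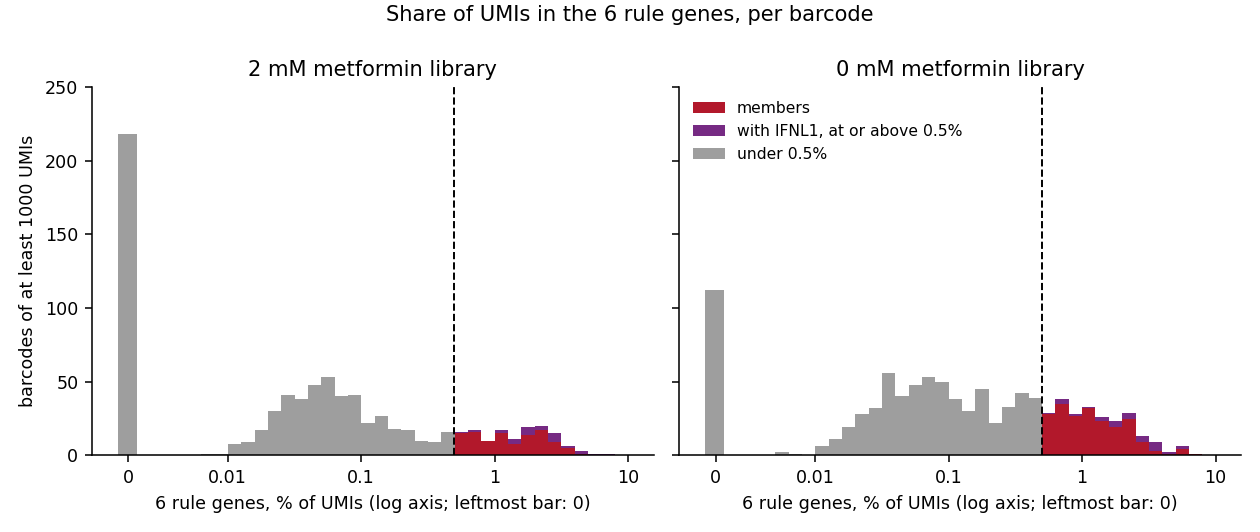
Number of barcodes of at least 1000 UMIs (vertical axis) by the percent of their UMIs in the 6 rule genes (horizontal log axis, with 0 as the leftmost bar), in the 2 mM library (left) and the 0 mM library (right). Red bars are members, purple bars IFNL1 carriers past the threshold and grey bars barcodes under 0.5%, and the dashed line is the threshold; 218 barcodes at 2 mM and 112 at 0 mM had none of the 6 transcripts.

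The rule genes chose the members, so their levels are a description. ISG15, a ubiquitin-like protein that is attached to other proteins, was the most abundant of the 6. It held 5814 CPM in members and 851 CPM in other barcodes at 2 mM, and 6483 CPM in members and 1034 CPM in others at 0 mM. The IFIT genes code for proteins that bind foreign RNA and block its translation. IFIT1 had 2273 CPM in members and 268 CPM in others at 2 mM, and 2005 CPM in members and 221 CPM in others at 0 mM. IFIT2 and IFIT3 lay between 2473 and 2872 CPM in members of both libraries. MX1, a GTPase that traps viral capsids, had 103 CPM in 2 mM members and 43.5 CPM in 0 mM members. OAS1, an enzyme that makes the activator of RNase L, had 133 CPM in 2 mM members and 77.4 CPM in 0 mM members. ISG15 alone gave 42.2% of the rule UMIs of 2 mM members and 46.5% of those of 0 mM members, and MX1 gave 0.746% at 2 mM and 0.312% at 0 mM.

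Members differed in how many of the 6 genes they carried. At least 1 UMI of ISG15 was seen in 107 of 110 members at 2 mM and 204 of 207 at 0 mM, and of IFIT3 in 102 members at 2 mM and 194 at 0 mM. Exactly 4 of the 6 genes were seen in 48.2% of members at 2 mM and 51.7% at 0 mM, and all 6 in 8 members at 2 mM and 16 at 0 mM. Each gene was also compared after choosing members with the other 5 alone. IFIT1 was then 8.32-fold higher in members than in others at 2 mM and 8.75-fold higher at 0 mM. Left out in the same way, ISG15 was 5.17-fold higher at 2 mM, with 69 members, and 4.21-fold higher at 0 mM, with 117 members. OAS1 left out was 15.8-fold higher at 2 mM (9.58 to 27.1, with 22 UMIs in others) and 5.86-fold higher at 0 mM. MX1 left out was 8.13-fold higher at 2 mM and 3.53-fold higher at 0 mM (2.24 to 5.56). At 0 mM, leaving out OAS1 or MX1 chose the same 207 members as all 6 genes.

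The label was checked against markers of the line and of other cells. VIM, the mesenchymal filament protein vimentin, had 1817 CPM in members and 1558 CPM in others at 2 mM, and 2916 CPM in members and 3376 CPM in others at 0 mM. CD44, a surface receptor marking this line, had 359.9 CPM in members and 248 CPM in others at 2 mM, and 418 CPM in members and 359 CPM in others at 0 mM. Both are expressed by mesenchymal-type carcinoma lines, whereas CDH1, the epithelial cadherin, had 0 CPM in 2 mM members and 2.12 CPM in 0 mM members. VIM, CD44 and CDH1 are part of a longer identity list, which also holds FN1, EPCAM and keratins. Summed, its 13 genes in the table had 4351 CPM in members and 4080 CPM in others at 2 mM. At 0 mM they had 5286 CPM in members and 5696 CPM in others. A lack of epithelial transcripts in general is not shown by CDH1 alone. Of 13 leukocyte markers, 4 were in the table, and summed they had 42.8 CPM in members and 24.9 CPM in others at 2 mM, and 33.9 CPM in members and 20.5 CPM in others at 0 mM. PTPRC, the marker of all leukocytes, had 0 UMIs in members of both libraries. Of 10 fibroblast and endothelial markers, 7 were in the table, with 12.9 CPM in members and 10.2 CPM in others at 2 mM, and 8.48 CPM in members and 3.81 CPM in others at 0 mM. The members thus had transcripts of VIM and CD44, as the other barcodes had, and either list of other cell types summed to at most 32 UMIs over all members of a library.

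Genes outside the rule were compared as the ratio of summed CPM, members over other barcodes of the same library. A gene was called higher or lower when its ratio was at least 1.5 one way in both libraries, which is a rule of size and not a test. Among 3796 genes compared, 213 (5.61%) were higher and 198 (5.22%) lower in members in both libraries. At 2-fold in both libraries, 113 genes (2.98%) were higher and 53 (1.4%) lower. The median gene had a log2 ratio of -0.08 at 2 mM and -0.11 at 0 mM. Intervals of ratios take every UMI for an independent draw, which leaves out the spread between cells and makes them too narrow. Genes with near-identical relatives (HLA, IFIT, IFITM, APOL and SAA genes) carry uncertain counts, since the counting method is not given in the sources used here.

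Most interferon genes compared were higher in members. Joined, the lists of receptors, transcription factors, sensors, OAS relatives, antiviral effectors, ISG15 pathway, feedback inhibitors, chemokines, guanylate binding proteins and HLA class I held 122 genes in the table, of which 74 were compared. Of these 74, 48 were higher in both libraries and 0 lower, against 5.61% and 5.22% of all genes compared. In 72 of the 74 the ratio was above 1 in both libraries, and the median log2 ratio was 1.14 at 2 mM and 1.0 at 0 mM. The lists were drawn up with earlier results of these cells known and the members were picked by genes of the same response, so these counts are a description. For the counts of single lists below, the shares over all genes compared are likewise 5.61% higher and 5.22% lower.

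**Figure D2:**
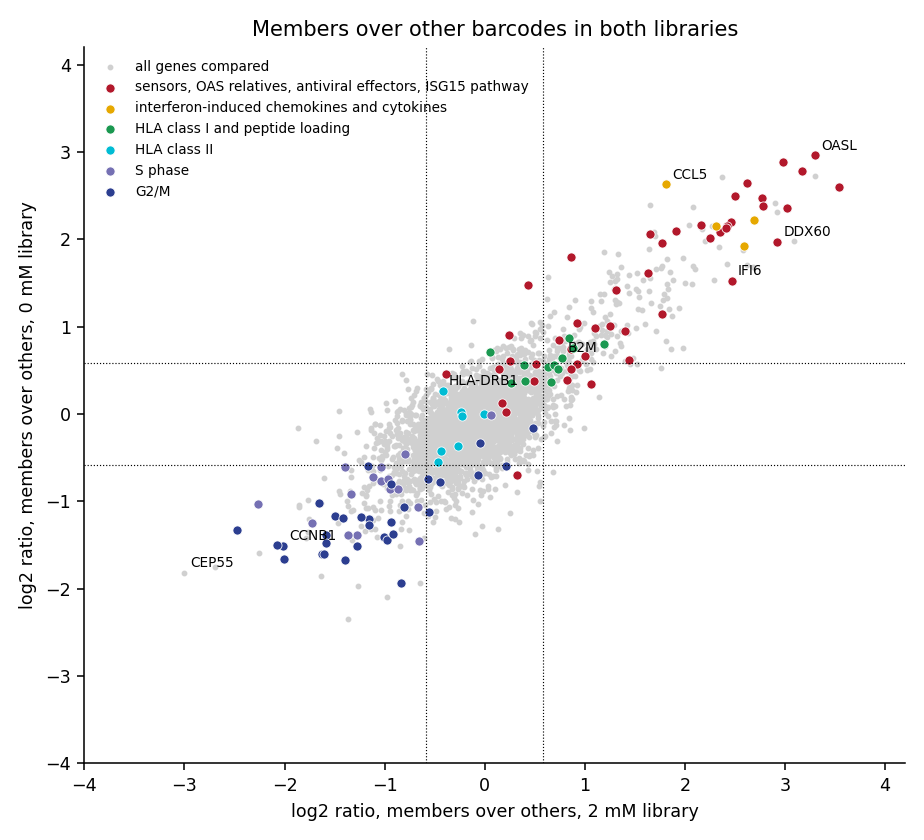
Log2 ratio of summed CPM, members over other barcodes, in the 2 mM library (horizontal axis) and the 0 mM library (vertical axis) for 3796 genes (grey) with gene lists in colour; dotted lines mark 1.5-fold. Antiviral genes and chemokines lie at the upper right with OASL near the corner, HLA class I genes just past the centre, HLA class II genes around it, and S-phase and G2/M genes at the lower left.

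Receptors and kinases upstream of the response differed little. IFNAR1, a chain of the type I receptor, had 94.3 CPM in members and 86.7 CPM in others at 2 mM, and 75.3 CPM in members and 83.3 CPM in others at 0 mM. JAK1, the kinase shared by type I, II and III receptors, had ratios of 1.19 at 2 mM and 1.03 at 0 mM. None of the 5 receptor and kinase genes compared was called either way, and IFNLR1, the specific chain of the type III receptor, was too low to compare with 2 UMIs in members of each library.

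Of 6 transcription factor genes compared, STAT2, IRF1, IRF7 and NMI were higher. IRF1, an activator of interferon and antigen presentation genes, had 195 CPM in members and 79.2 CPM in others at 2 mM, and 197 CPM in members and 68.4 CPM in others at 0 mM. The ratios of IRF1 were 2.46 (1.90 to 3.16) and 2.88 (2.37 to 3.51). STAT2, a subunit of the complex that binds the response element, was 1.86-fold higher at 2 mM and 1.87-fold higher at 0 mM. IRF7, which amplifies type I interferon production, had 62.1 CPM in members and 22.2 CPM in others at 2 mM, and 55.1 CPM in members and 35.2 CPM in others at 0 mM. After thinning to 1000 UMIs, the log2 ratio of IRF7 at 0 mM was -0.14. IRF9, which binds DNA in that complex, had 0 UMIs in members of both libraries.

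Sensors of viral RNA were among the genes highest in members. IFIH1 codes for MDA5, which binds long double-stranded RNA. It had 998 CPM in members and 162 CPM in others at 2 mM, and 887 CPM in members and 142 CPM in others at 0 mM. Its ratios were 6.16 (5.39 to 7.04) at 2 mM and 6.25 (5.58 to 7.0) at 0 mM. DDX58, which codes for RIG-I, the sensor of short RNA with a 5' triphosphate, had 1082 CPM in members and 191 CPM in others at 2 mM, and 1078 CPM in members and 191 CPM in others at 0 mM. DDX60, a helicase linked to RIG-I signalling, was 7.59-fold higher at 2 mM and 3.93-fold higher at 0 mM. DHX58, which codes for the related helicase LGP2, was 5.51-fold and 4.60-fold higher. Not all sensors were called: EIF2AK2, the RNA-dependent kinase PKR, had ratios of 1.41 at 2 mM and 1.30 at 0 mM, and MB21D1, the DNA sensor cGAS, 1.12 and 1.09. Of 8 sensor genes compared, 4 were higher.

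OASL, a catalytically inactive relative of OAS1 that enhances RIG-I signalling, led the ranking of genes outside the rule. It had 1499.7 CPM in members and 152 CPM in others at 2 mM, a ratio of 9.85 (8.70 to 11.2). At 0 mM it had 1399 CPM in members and 179.5 CPM in others, a ratio of 7.79 (7.08 to 8.59). Part of the level in others came from the IFNL1 carriers: in barcodes under 0.5% without IFNL1, the level of OASL was 34.6 CPM at 2 mM and 82.8 CPM at 0 mM. OAS2, another maker of the RNase L activator, was 5.36-fold higher at 2 mM and 4.46-fold higher at 0 mM.

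The enzymes that attach ISG15 to proteins followed. HERC5, the main ISG15 ligase in human cells, had 1296 CPM in members and 164 CPM in others at 2 mM, and 1281 CPM in members and 172 CPM in others at 0 mM. Its ratios were 7.90 (6.97 to 8.96) at 2 mM and 7.42 (6.72 to 8.21) at 0 mM. HERC6, its neighbour and relative, had 234 CPM in members and 33.9 CPM in others at 2 mM, and 186 CPM in members and 35.5 CPM in others at 0 mM. UBE2L6, the conjugating enzyme for ISG15, was 2.39-fold higher at 2 mM and 2.02-fold higher at 0 mM. RNF213, a large ubiquitin ligase, was 1.82-fold higher at 2 mM and had a ratio of 1.42 at 0 mM. USP18, which removes ISG15 and dampens the receptor, was too low to compare, at 4.28 CPM in 2 mM members and 5.30 CPM in 0 mM members.

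Of 31 other antiviral effector genes compared, 23 were higher in both libraries and 0 lower, and 29 had ratios above 1 in both. ISG20, an exonuclease that degrades viral RNA, had 1118 CPM in members and 164 CPM in others at 2 mM, and 707 CPM in members and 127 CPM in others at 0 mM. RSAD2, which codes for viperin, a maker of a chain-terminating nucleotide, had 309 CPM in members and 34.3 CPM in others at 2 mM, and 101 CPM in members and 14.7 CPM in others at 0 mM. ZC3HAV1, the zinc-finger protein ZAP that binds CpG-rich RNA, had 533 CPM in members and 119.5 CPM in others at 2 mM, and 451 CPM in members and 101 CPM in others at 0 mM. The 3 genes differed in size of ratio but not in direction, from 4.46-fold for ZC3HAV1 to 8.99-fold for RSAD2, both at 2 mM. IFI44, RTP4, SAMD9, SAMD9L, EPSTI1, PARP14 and ZNFX1 were also higher, with ratios between 3.07 (ZNFX1 at 0 mM) and 11.6 (RTP4 at 2 mM). RTP4 rested on 47 UMIs in members and 23 in others at 2 mM.

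Some antiviral genes differed less. IFITM3, a membrane protein that blocks viral entry, had 1885 CPM in members and 995 CPM in others at 2 mM, and 2423 CPM in members and 1172 CPM in others at 0 mM. BST2, which codes for tetherin, a protein that holds budding virions at the cell surface, had 401 CPM in members and 347 CPM in others at 2 mM, and 263 CPM in members and 258 CPM in others at 0 mM. The ratios of BST2, 1.15 (0.982 to 1.35) and 1.02 (0.882 to 1.18), have intervals that include 1. IFI27, a mitochondrial and nuclear membrane protein induced by type I interferon, had 694 CPM in members and 256 CPM in others at 2 mM, and 155 CPM in members and 101 CPM in others at 0 mM.

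**Figure D3:**
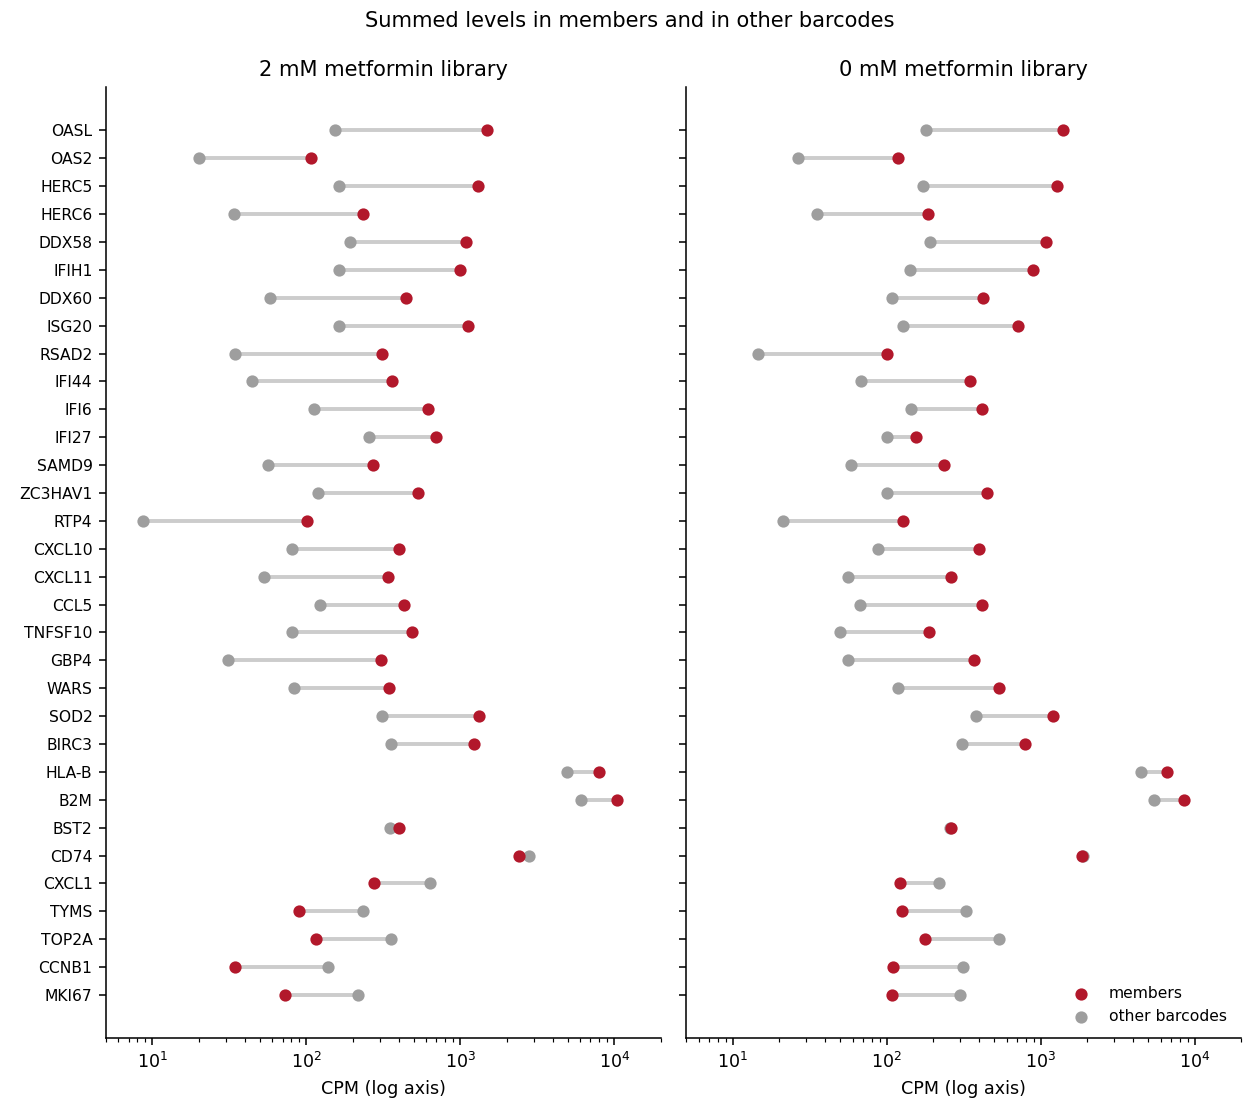
Summed CPM (horizontal log axis) of 32 genes in members (red) and in other barcodes (grey) of the 2 mM library (left) and the 0 mM library (right), joined by a line. Members lie to the right for antiviral, chemokine and sensor genes, near the others for BST2 and CD74, and to the left for CXCL1, TYMS, TOP2A, CCNB1 and MKI67.

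All 4 chemokine and cytokine genes compared were higher. CXCL10 and CXCL11 code for ligands of CXCR3, a chemokine receptor found on T cells. CXCL10 had 398 CPM in members and 80.3 CPM in others at 2 mM, and 394 CPM in members and 88.3 CPM in others at 0 mM. CXCL11 had 341 CPM in members and 52.8 CPM in others at 2 mM, and 261 CPM in members and 55.7 CPM in others at 0 mM. CCL5, a chemokine that draws T cells and monocytes, had 433 CPM in members and 123 CPM in others at 2 mM, and 418 CPM in members and 67.5 CPM in others at 0 mM. TNFSF10, the death receptor ligand TRAIL, was 6.03-fold higher at 2 mM and 3.81-fold higher at 0 mM. At least 1 UMI of CXCL10, CXCL11 or CCL5 was seen in 75.5% of members and 17.4% of others at 2 mM, and in 72.5% of members and 23.1% of others at 0 mM. After thinning to 1000 UMIs these shares were 52.7% of members and 9.13% of others at 2 mM, and 43.5% of members and 10.9% of others at 0 mM. The share in barcodes under 0.5% without IFNL1 was 14.4% at 2 mM and 20.2% at 0 mM with all UMIs, and 5.75% at 2 mM and 8.30% at 0 mM after thinning, so chemokine transcripts were found outside the members too.

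Genes best known as targets of interferon gamma were mixed in size. GBP4, a guanylate binding protein, had 304 CPM in members and 30.9 CPM in others at 2 mM, and 370.0 CPM in members and 56 CPM in others at 0 mM. WARS, the tryptophanyl-tRNA synthetase, was 4.12-fold higher at 2 mM and 4.49-fold higher at 0 mM. GBP1 and GBP3 were 2.36-fold and 3.55-fold higher at 2 mM and 3.09-fold and 2.70-fold higher at 0 mM. Of 6 genes compared in this list, 4 were higher and 0 lower.

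The class I antigen presentation genes were higher by less. B2M, the light chain of all class I molecules, had 10363 CPM in members and 6082 CPM in others at 2 mM, and 8572 CPM in members and 5477 CPM in others at 0 mM. HLA-B, a heavy chain, had 7987 CPM in members and 4933 CPM in others at 2 mM, and 6589.8 CPM in members and 4454 CPM in others at 0 mM. All 12 genes compared had ratios above 1 in both libraries, and 4 (HLA-F, B2M, TAP1 and PSMB9) passed 1.5-fold in both. TAP1, the peptide transporter, was 1.84-fold higher at 2 mM and 1.69-fold higher at 0 mM, and PSMB9, an immunoproteasome subunit, 2.28-fold and 1.75-fold.

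HLA class II genes, which present peptides to helper T cells, were not higher. Of 7 compared, 0 were called and 5 had ratios below 1 in both libraries. HLA-DRA had 1063 CPM in members and 1251 CPM in others at 2 mM, and 585 CPM in members and 577 CPM in others at 0 mM. CD74, the invariant chain, had ratios of 0.852 at 2 mM and 0.987 at 0 mM.

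Genes of NF-kB, the transcription factor of inflammation, were split. Of 11 compared, 7 were higher (NFKBIZ, NFKB2, TNFAIP2, BIRC3, ICAM1, SOD2 and IL6) and 2 lower (CXCL1 and IL8). Over all genes compared, 5.61% were higher and 5.22% lower. SOD2, the mitochondrial superoxide dismutase, had 1318 CPM in members and 308 CPM in others at 2 mM, and 1209.6 CPM in members and 383 CPM in others at 0 mM. BIRC3, an inhibitor of apoptosis, was 3.45-fold higher at 2 mM and 2.59-fold higher at 0 mM. CXCL1, a neutrophil chemokine, had 276 CPM in members and 636 CPM in others at 2 mM, and 122 CPM in members and 218 CPM in others at 0 mM. IL8, which codes for a related neutrophil chemokine, had ratios of 0.439 at 2 mM and 0.474 at 0 mM. CXCL1 and IL8 were thus lower while most other genes compared in this list were higher.

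Cell cycle genes were lower in members. Of 47 S-phase and G2/M genes compared, 38 were lower in both libraries and 0 higher, against 5.22% and 5.61% of all genes compared, with median log2 ratios of -1.12 at 2 mM and -1.17 at 0 mM. TOP2A, the topoisomerase of dividing cells, had 116 CPM in members and 357 CPM in others at 2 mM, and 177 CPM in members and 536 CPM in others at 0 mM. CCNB1, the mitotic cyclin B1, had 34.3 CPM in members and 138 CPM in others at 2 mM, and 109 CPM in members and 310.4 CPM in others at 0 mM. MKI67, the proliferation antigen Ki-67, had 72.8 CPM in members and 218 CPM in others at 2 mM, and 108 CPM in members and 300.1 CPM in others at 0 mM. In all 3 genes the level in members was 0.248 to 0.360 of that in others. TYMS, thymidylate synthase of S phase, had ratios of 0.387 at 2 mM and 0.382 at 0 mM.

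As shares of cells, the intervals of members and others overlapped at 2 mM and did not at 0 mM. With each barcode thinned to 1000 UMIs, at least 3 G2/M UMIs were found in 29.1% of members (20.8 to 38.5%) and 34.8% of others (31.2 to 38.5%) at 2 mM. At 0 mM they were found in 31.4% of members (25.1 to 38.2%) and 43.7% of others (40.1 to 47.4%). At least 3 S-phase UMIs were found in 13.6% of members and 22.8% of others at 2 mM, and 14.5% of members and 29.7% of others at 0 mM. Unthinned, at least 3 G2/M UMIs were found in 66.4% of members and 66.1% of others at 2 mM, and in 78.3% of members and 81.7% of others at 0 mM. Few cells carried much of the sums: 4 members held 31.7% of the G2/M UMIs of all 110 at 2 mM, and 4 held 29.6% of those of all 207 at 0 mM. Among cells with fewer than 3 UMIs of each list after thinning, which this choice makes alike in cycle, the median log2 ratio of G2/M genes was 0.15 at 2 mM and 0.14 at 0 mM. Of the 213 genes higher in members, 160 were also called among those cells, and of the 198 lower genes, 57 were.

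Transcripts of the mitochondrial genome were lower without reaching 1.5-fold in both libraries. All 13 had ratios below 1, with median log2 ratios of -0.55 at 2 mM and -0.19 at 0 mM. The median member had 3.88% of its UMIs from the mitochondrial genome at 2 mM and 4.58% at 0 mM, and the median other barcode 5.33% at 2 mM and 5.35% at 0 mM. Among 35 nuclear genes of complex I, the enzyme that metformin inhibits, 0 were called either way. Of these, 23 had ratios below 1 in both libraries and 1 had ratios above 1 in both. Their median log2 ratio was -0.31 at 2 mM and -0.22 at 0 mM, against -0.08 and -0.11 for all genes compared. The hypoxia list had 0 calls among 10 genes compared, the epithelial and mesenchymal identity list 0 among 9, and the integrated stress response list 1 lower gene (SHMT2) among 7. FAS, the death receptor and a p53 target, had 111 CPM in members and 17.3 CPM in others at 2 mM, and 82.7 CPM in members and 25.8 CPM in others at 0 mM.

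Among the 15 genes ranked highest, 2 lay outside the lists. KLF4 had 283 CPM in members and 37.3 CPM in others at 2 mM, and 169.6 CPM in members and 34 CPM in others at 0 mM. Its ratios were 7.58 (5.79 to 9.93) at 2 mM and 4.98 (3.90 to 6.39) at 0 mM. The IFNL1 carriers past the threshold had 393 CPM of KLF4 at 2 mM and 268 CPM at 0 mM. PPM1K, a mitochondrial phosphatase of branched-chain amino acid breakdown that lies beside HERC6 and HERC5 on chromosome 4, was 7.46-fold higher at 2 mM and 5.35-fold higher at 0 mM. Among the 10 genes ranked lowest, THBS1, the matrix protein thrombospondin 1, was not a cycle gene. It had 150.0 CPM in members and 386 CPM in others at 2 mM, and 38.2 CPM in members and 194 CPM in others at 0 mM. In the IFNL1 carriers THBS1 had 62.9 CPM (8 UMIs) at 2 mM and 23.0 CPM (3 UMIs) at 0 mM. The other 9 were CEP55, TOP2A, CCNB1, ANLN, ASPM, DIAPH3, MKI67, PBK and CENPF, most of them genes of mitosis.

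Members were set beside the IFNL1 carriers past the same threshold. The carriers were few, 26 at 2 mM and 30 at 0 mM, and had median depths of 3943.5 UMIs at 2 mM and 4741 at 0 mM. The 6 rule genes together had 13791 CPM in members and 26032 CPM in carriers at 2 mM, and 13954 CPM in members and 23858 CPM in carriers at 0 mM. The chemokine and cytokine list had 1737 CPM in members and 4365 CPM in carriers at 2 mM, and 1319 CPM in members and 3789 CPM in carriers at 0 mM. Both sums were lower in members in each library. For the NF-kB list the sums were 5384 CPM in members and 8839.7 CPM in carriers at 2 mM, and 4527 CPM in members and 8159.9 CPM in carriers at 0 mM. The HLA class I list did not follow: it had 31382 CPM in members and 27840.5 CPM in carriers at 2 mM, and 27237 CPM in members and 29925 CPM in carriers at 0 mM. The acute phase and complement list had 4741 CPM in members and 3272 CPM in carriers at 2 mM. At 0 mM it had 1703 CPM in members and 2730 CPM in carriers.

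CXCL10 and IL6 were also lower in members than in carriers in both libraries, and HERC5 was at 2 mM. CXCL10 had 398 CPM in members and 1321 CPM in carriers at 2 mM, and 394 CPM in members and 1779 CPM in carriers at 0 mM. IL6, an inflammatory cytokine, had 279 CPM in members and 653 CPM in carriers at 2 mM, and 133 CPM in members and 851 CPM in carriers at 0 mM. HERC5 had 1296 CPM in members and 2029 CPM in carriers at 2 mM, and 1281 CPM in members and 1396 CPM in carriers at 0 mM. Its ratio at 0 mM, 0.918 (0.784 to 1.08), has an interval that includes 1. IFI27 did not have this order at 2 mM, with 694 CPM in members and 645 CPM in carriers. At 0 mM it had 155 CPM in members and 422 CPM in carriers. The sister genes IFNL2 and IFNL3, whose reads cannot be told apart with certainty, had at least 1 UMI in 1 of 110 members and 9 of 26 carriers at 2 mM. At 0 mM they were seen in 0 of 207 members, and in 11 of 30 carriers. With 0 of 207, a limit of 3 counts allows a share of up to 1.45% of members with a UMI, and the exact binomial upper bound is 1.77%. Other interferon genes were not analysed here.

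Within the members, genes outside the rule were read in 3 tiers of the rule score: 0.5 to 1% (41 members at 2 mM, 90 at 0 mM), 1 to 2% (37 and 76) and 2% or more (32 and 41). The OAS relatives had 878, 1809.6 and 3321 CPM across the tiers at 2 mM, and 931, 1646 and 3279 CPM at 0 mM. The sensors had 2555, 3261 and 4985 CPM at 2 mM, and 2449, 3629 and 4116 CPM at 0 mM. Both sums were thus graded along with the rule genes in both libraries, though few genes held much of them. OASL held 700 of the 828 UMIs of the OAS relatives in 2 mM members, and 1320 of 1573 in 0 mM members. Of the 1576 sensor UMIs in 2 mM members, DDX58 held 505 and IFIH1 466. In 0 mM members DDX58 held 1017 and IFIH1 837 of 3043. Summed chemokine and cytokine genes reached 1250.4, 1722 and 2623 CPM at 2 mM, and 763, 1534 and 2095 CPM at 0 mM. HLA class I genes were not higher in the top tier, with 31863, 31878 and 29886 CPM at 2 mM and 27567, 28205 and 24696 CPM at 0 mM. G2/M genes had 2422, 2816 and 2318 CPM at 2 mM, and 2999.9, 2036 and 5796 CPM at 0 mM. In the top tier at 0 mM, 4 of 41 members held 78.7% of the G2/M UMIs. The rule and these lists are read in the same cells, so the grading is a description.

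Single genes differed in their grading. OASL had 701, 1499 and 2919.8 CPM across the tiers at 2 mM, and 798, 1371 and 2735 CPM at 0 mM. IFIH1 had 505, 1013 and 1856 CPM at 2 mM, and 453, 1008 and 1584 CPM at 0 mM. IFI27 ran the other way at 2 mM, with 892, 668 and 375 CPM, and at 0 mM had 150.1, 143 and 187 CPM. DDX60 showed no order at 2 mM (456, 371 and 514 CPM), nor at 0 mM (395, 494 and 341 CPM). Among the other sensors, DDX58 rose, with 740, 952 and 1856 CPM at 2 mM and 776, 1239 and 1418 CPM at 0 mM. MB21D1 fell, with 147, 122 and 78.4 CPM at 2 mM and 145, 121 and 58.6 CPM at 0 mM. EIF2AK2 and IFI16 were lowest in the top tier of both libraries.

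**Figure D4:**
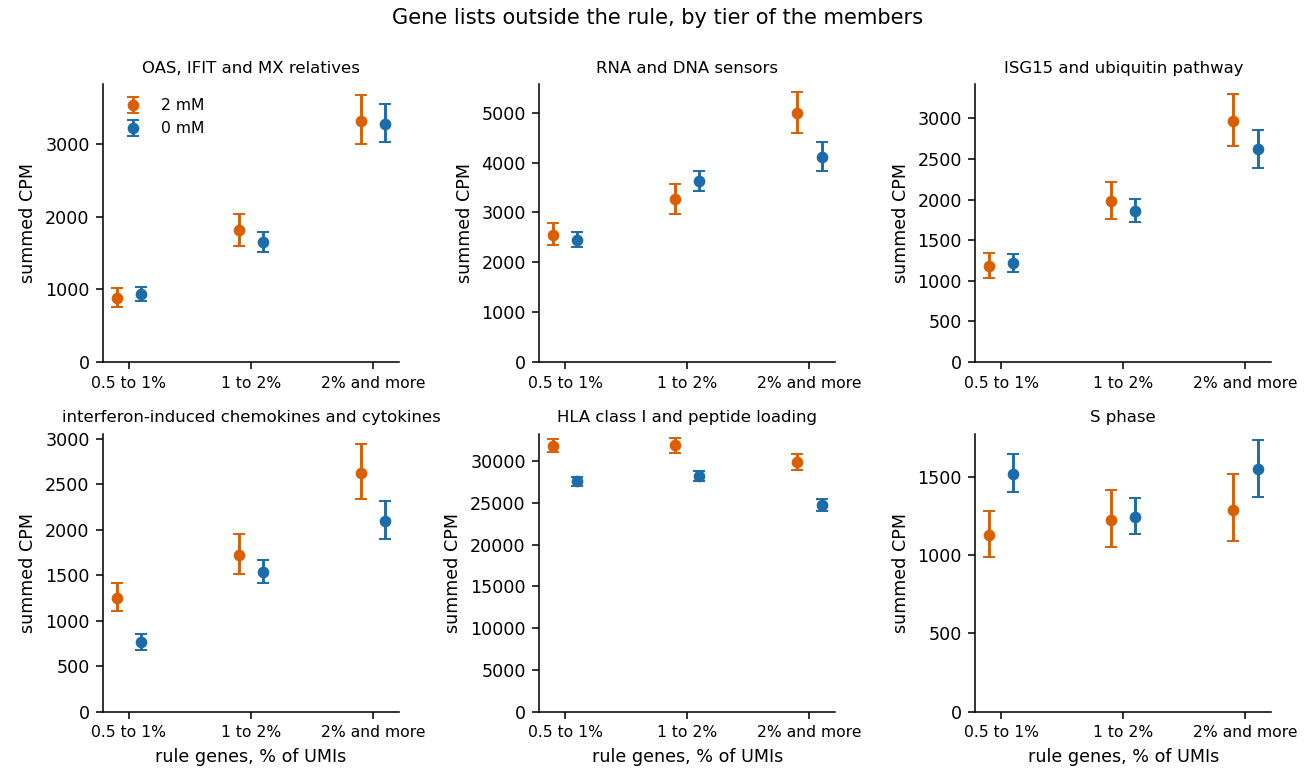
Summed CPM (vertical axis, from 0) of 6 gene lists in members by tier of the rule score (horizontal axis), at 2 mM (orange, left) and 0 mM (blue, right), with 95% exact Poisson intervals that cover counting error only. The OAS relatives, sensors, ISG15 pathway and chemokines are highest in the top tier of both libraries, whereas HLA class I genes are lowest there and S-phase genes differ little between tiers.

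Between doses, members were compared as 2 mM over 0 mM, with the ratio in other barcodes beside named genes. Of 4121 genes compared in members, 451 (10.9%) were at least 1.5-fold higher at 2 mM and 333 (8.08%) lower; at 2-fold 117 (2.84%) were higher and 65 (1.58%) lower. The balance at 1.5-fold turned with the scaling: TMM factors gave 313 higher and 484 lower, and the median log2 ratio was then -0.08, against 0.04 with totals. Most interferon genes lay near that median. Of 77 interferon-list genes compared, 11 were higher, 3 lower, and the median log2 ratio was 0.12. OASL had 1499.7 CPM in 2 mM members and 1399 CPM in 0 mM members, a ratio of 1.07 (0.976 to 1.18), and 0.848 in others. HERC5, DDX58 and CXCL10 had ratios of 1.01, 1.0 and 1.01 in members and 0.951, 1.0 and 0.909 in others.

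A few interferon genes differed between doses. RSAD2 had 309 CPM in 2 mM members and 101 CPM in 0 mM members, a ratio of 3.06 (2.35 to 4.01), and 2.34 in others. IFI27 had 694 CPM in 2 mM members and 155 CPM in 0 mM members, a ratio of 4.48 (3.68 to 5.49), and 2.54 in others. TNFSF10 had a ratio of 2.57 (2.10 to 3.14) in members and 1.62 in others. These 3 were higher at 2 mM in others as well. ISG20, XAF1, PARP12 and BST2 had ratios of 1.58, 1.87, 1.62 and 1.52 in members and 1.29, 1.21, 1.19 and 1.35 in others. Under other settings of the processing, the log2 ratio in members fell as low as 0.41 for ISG20, 0.58 for PARP12 and 0.43 for BST2. Each of these is short of 1.5-fold. The rule gene MX1 had a ratio of 2.37 (1.53 to 3.68) in members and 0.979 in others, and OAS1 1.72 (1.20 to 2.44) in members and 0.600 in others. MX1 rested on 48 UMIs in 22 members at 2 mM and 41 UMIs in 36 members at 0 mM. OAS1 rested on 62 UMIs at 2 mM and 73 at 0 mM. Both genes helped to split members from others, so these ratios are a description. Lower at 2 mM were IFITM2 at 0.603, APOL2 at 0.597 and WARS at 0.646, with 0.783, 0.795 and 0.703 in others. Under other settings their log2 ratios in members rose as high as -0.55, -0.08 and -0.26, also short of 1.5-fold. XAF1, a proapoptotic interferon target, had a log2 ratio of 0.90 with all counts and of -0.53 after thinning to 1000 UMIs. BIRC3, of the NF-kB list, had a ratio of 1.55 in members and 1.16 in others, and in members a log2 ratio of -0.075 without the 5% of barcodes with most UMIs.

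**Figure D5:**
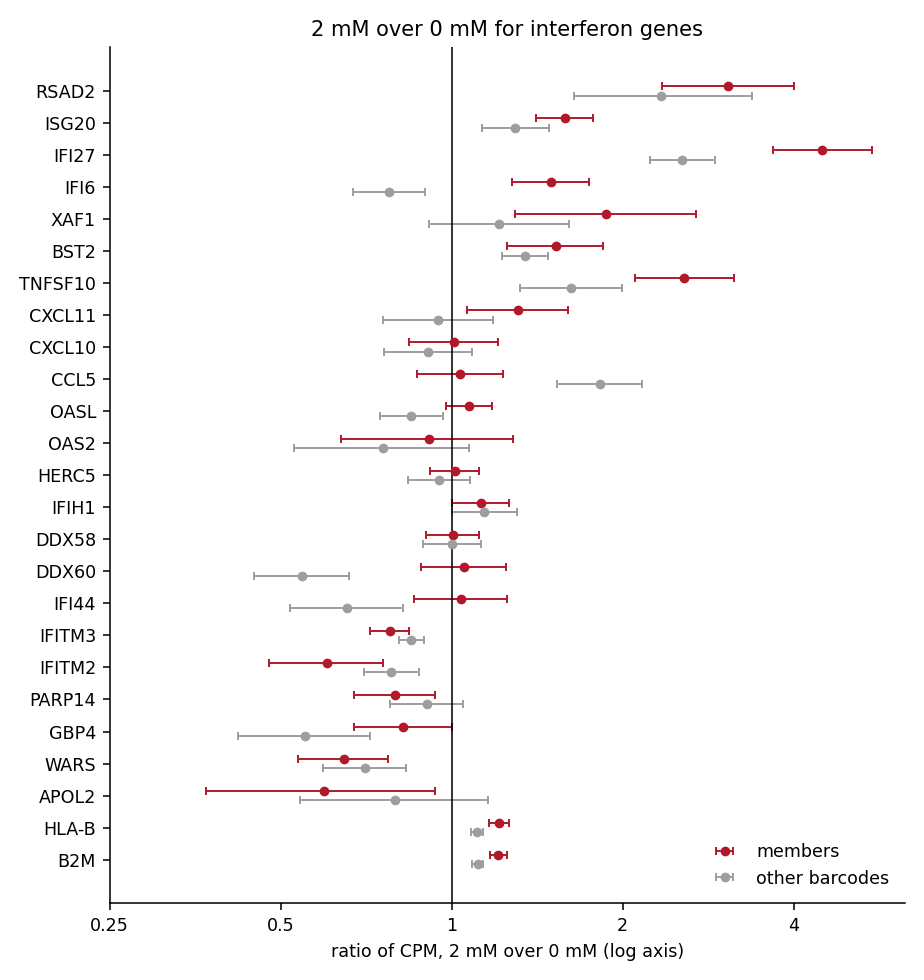
Ratio of summed CPM, 2 mM over 0 mM (horizontal log axis), of 25 interferon genes in members (red, upper of each pair) and in other barcodes (grey, lower), with 95% intervals that cover counting error only; the vertical line is a ratio of 1. IFI27, RSAD2 and TNFSF10 lie to the right in both, most genes lie near 1, and IFI6 lies to the right in members and to the left in others.

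The largest differences between doses in members were in other genes. LCN2, the iron-siderophore binding protein lipocalin 2, had 249 CPM in 2 mM members and 13.8 CPM in 0 mM members, a ratio of 18 (10.1 to 34.9), and 6.94 in others. SAA1, an acute phase protein, had 3136 CPM in 2 mM members and 1135 CPM in 0 mM members, a ratio of 2.76, and 2.34 in others. SAA2 and C3, the central complement component, had ratios of 4.28 and 3.51 in members and 3.04 and 2.29 in others. Of 6 acute phase and complement genes compared between doses, 4 were higher and 1 lower. HLA-DPB1 had 283 CPM in 2 mM members and 114 CPM in 0 mM members, a ratio of 2.47, and 2.33 in others. Of 7 HLA class II genes compared, 6 were higher at 2 mM in members, with a median log2 ratio of 0.81 in members and 0.84 in others. Over all genes compared between doses in members, 10.9% were higher and 8.08% lower.

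ID1 and ID3 were among the 10 genes ranked lowest at 2 mM. ID1, an inhibitor of helix-loop-helix factors, had 197 CPM in 2 mM members and 692 CPM in 0 mM members, a ratio of 0.285 (0.226 to 0.355), and 0.295 in others. ID3, its relative, had 8.57 CPM in 2 mM members and 143 CPM in 0 mM members, a ratio of 0.0599, and 0.138 in others. ESAM, an adhesion molecule, had 1 UMI in 2 mM members and 74 UMIs in 0 mM members, a ratio of 0.0273 (0.000682 to 0.157), and 0.139 in others. NQO1, a quinone reductase, and ACTB, beta-actin, had ratios of 0.444 and 0.439 in members and 0.458 and 0.408 in others. The other genes ranked by size between doses were CPVL, PDZK1IP1, PLAT, THBS1 and TNC, all higher, and TCEA3, CTC-425F1.4, EBI3, EGR1 and CA12, all lower; in each of these 10 the ratio in others lay on the same side of 1. Cycle genes were lower in members than in others at each dose. Within members, 0 of 36 were higher and 8 lower at 2 mM than at 0 mM, against 10.9% and 8.08% of all genes compared. The median log2 ratio between doses of the G2/M genes was -0.30 in members and -0.51 in others. For the S-phase genes it was -0.28 in members and -0.03 in others.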

How the data were processed

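The authors deposited whole UMI counts per gene and barcode, 19826 genes in 2000 barcodes, 1000 per library. Per the submitters' processing notes, bcl2fastq and STAR 2.5.0a were among the tools, and reads were placed on hg19. For barcode selection, UMI collapsing, annotation and strand, the method is not given in the sources used. Every column was mapped to a library by the start of its name. Counts were summed over the members and over the other barcodes of each library and scaled to CPM. Genes compared had at least 50 CPM in either sum and at least 20 UMIs over both. Ratios have 95% exact conditional Clopper-Pearson intervals, shares exact binomial intervals and sums exact Poisson intervals. Between members and others, the bounds had to be met in each library. The computation was tested on simulated counts.

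The 27 gene lists, the members and the rule for named genes were chosen with earlier results of these data known. Named genes are the 15 highest and 10 lowest in members against others, the 10 highest and 10 lowest between doses, ranked by the interval bound nearest 1, and any list gene; others are named with a remark. Mitochondrially encoded and ribosomal protein genes stayed out of the ranks. No doublet caller was run, so barcodes that join a member and another cell were not looked for. An alternative left out the 5% of barcodes with the most UMIs. No barcode was shared between libraries. Barcodes that differ by 1 base within a library were found (2 sets holding 4 members at 2 mM, 9 sets holding 24 members at 0 mM), and were merged in an alternative. Other alternatives were UMI minima, rule thresholds, thinning, a limit on mitochondrial UMIs, other choices of the barcodes compared, equal weight per cell, TMM factors (edgeR 4.0.16), CPM minima, a fold of 2 and cells with few cycle transcripts. Python 3.11.15, numpy 2.4.6, scipy 1.17.1, pandas 2.3.3, matplotlib 3.10.9 and R 4.3.3 were used. Promoter sequences came from RefSeq (GRCh38.p14), another build than hg19, and were joined by symbol only.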

Additional observations from a re-analysis of the deposited data

Results flagged for a closer look

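In 10 genes of the lists, the ratio ran one way in one group and the other way in the other, with both intervals clear of 1. These differences were not tested.

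Between doses, IFI6, a mitochondrial interferon-induced protein, had a ratio of 1.49 (2 mM over 0 mM) in members and 0.776 in other barcodes. CDKN2C, an inhibitor of the G1 kinases, had 1.45 in members and 0.788 in others, and NDUFC1, a complex I subunit, 1.35 in members and 0.831 in others. Running the other way, PSME2, a proteasome activator subunit, had 0.756 in members and 1.19 in others. NFKBIA, the inhibitor of NF-kB, had 0.878 in members and 1.08 in others. Of the mitochondrially encoded genes, MT-ATP8 had 0.805 in members and 1.55 in others, MT-CO3 0.824 in members and 1.14 in others, and MT-ND1 0.908 in members and 1.07 in others.

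Between members and others, VIM had a ratio of 1.17 at 2 mM and 0.864 at 0 mM, and HLA-DRB1 0.748 at 2 mM and 1.20 at 0 mM.

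Barcodes of under 1000 UMIs were left out of all comparisons. Of these, 36 of 200 at 2 mM (18%, 12.9 to 24%) and 11 of 56 at 0 mM (19.6%, 10.2 to 32.4%) met the same rule on the 6 genes and IFNL1. At such depth, few UMIs are enough to reach 0.5%. These barcodes held from 2 to 991 UMIs at 2 mM and from 774 to 996 UMIs at 0 mM. The shares of the libraries are therefore not of like depth.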

How the results depend on the processing

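No paired analysis was possible because each dose has 1 library. The share of members was lower at 2 mM than at 0 mM under each alternative. It was 16.8% at 2 mM and 31.3% at 0 mM with the rule genes at 0.3%, and 8.63% at 2 mM and 12.4% at 0 mM at 1%. After thinning, the 0 mM share was 26.2%. The number of genes higher in members was 479 with no minimum CPM, 135 at 100 CPM and 113 at 2-fold, and the number lower was 692, 90 and 53. In cells with few cycle transcripts 114 genes were lower. Between doses, genes higher at 2 mM in members numbered 1110 with no minimum CPM, 173 at 100 CPM and 117 at 2-fold, and genes lower 956, 136 and 65. After thinning, 537 were lower at 2 mM. The CPM minimum and the fold act on these counts by construction, through the number of genes compared and the threshold. For the counts in thinned cells and in cells with few cycle transcripts the cause was not tested. In cells with few cycle transcripts, chosen by those lists, some log2 ratios of members over others turned: the G2/M median was 0.15 at 2 mM and 0.14 at 0 mM, CCNB1 was 0.19 at 0 mM, MKI67 0.078, PBK 0.75 and PCNA 0.30 at 2 mM. After thinning, PCNA was 0.028 at 2 mM, IRF7 -0.14 at 0 mM, and XAF1 -0.53 between doses. Leaving out the deepest 5% of barcodes, BIRC3 was -0.075 between doses. The cause was not tested. Of the 213 genes higher in members, 155 were also called after thinning and 212 with TMM factors. Leaving the IFNL1 carriers out of the others kept 209 of these 213 and 194 of the 198 lower. Merging barcodes 1 base apart gave 113 members at 2 mM and 192 at 0 mM. Of the remaining values for single genes and lists, 3195 moved by less than their interval or spread and 570 by more, with no change of direction for called values.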

Other observations

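The following genes outside the lists were chosen after their values were seen. Of the 113 genes at least 2-fold higher in members in both libraries, 80 lay outside the interferon lists. RARRES3, a phospholipase induced by retinoids and interferon, had 1289.7 CPM in members and 254 CPM in others at 2 mM, and 1073 CPM in members and 284 CPM in others at 0 mM. CH25H, the maker of the antiviral oxysterol 25-hydroxycholesterol, had 255 CPM in members and 42.6 CPM in others at 2 mM, and 175 CPM in members and 47.5 CPM in others at 0 mM. PMAIP1, which codes for the proapoptotic protein NOXA, had 1270.4 CPM in members and 406 CPM in others at 2 mM, and 949 CPM in members and 256 CPM in others at 0 mM. IGFBP6, a binding protein of insulin-like growth factor, was 3.61-fold higher at 2 mM and 3.10-fold higher at 0 mM, and FZD4, a Wnt receptor, 8.52-fold and 3.95-fold. PLAUR, the urokinase receptor, was 4.01-fold higher at 2 mM and 2.83-fold higher at 0 mM.

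Lower in members were HMGCS1, SQLE and TNC, also chosen after their values were seen. HMGCS1, which makes the precursor of mevalonate, had 139 CPM in members and 316 CPM in others at 2 mM, and 188 CPM in members and 357 CPM in others at 0 mM. SQLE, squalene epoxidase, had ratios of 0.558 at 2 mM and 0.541 at 0 mM. TNC, the matrix protein tenascin C, had ratios of 0.507 at 2 mM and 0.234 at 0 mM.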
